A study of Mus musculus with 4 samples.

Results

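The collagen genes were described in cells sorted from the main olfactory epithelium (MOE) of mice, as the 44 genes with a symbol of the form Col, a type number, the letter a, and a chain number, out of 24421 genes in the table of TPM values. TPM is a level per transcript length, scaled to a fixed sum per library, so genes can be compared within a library. There were 4 RNA-seq libraries with 1 library per group. GFP-positive and GFP-negative cells came from TAAR enhancer 1-GFP transgenic mice, and tdTomato-positive and tdTomato-negative cells from TAAR enhancer 2-tdTomato transgenic mice, all labelled as strain C57BL/6. According to the methods the transgene was injected into C57BL/6J eggs, while the reporting summary gives a mixed background, of C57BL/6J and a further strain, for the mouse lines of the study in general. In each line the enhancer of the trace amine-associated receptor (*Taar*) cluster drives the reporter through the Hsp68 minimal promoter, a single founder was kept per line, and mice of similar age were sorted together. The labels call the mice adult, whereas the reporting summary of the study gives postnatal day 14 for the GFP line and days 14 to 21 for the tdTomato line. The lines differ in enhancer, reporter, founder, sort, and the stated age range, which cannot be told apart. With 1 library per group there is no error estimate, and no p-values were calculated.

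Collagens are secreted or membrane-bound proteins built of 3 chains wound around each other, with glycine at regular positions. Fibrillar collagens form the fibers of connective tissue and cartilage. Type IV collagen forms the network of basement membranes, type VI the beaded filaments beside them, and type VII the fibrils that anchor an epithelium to its stroma. FACIT collagens (fibril-associated collagens with interrupted helices) sit on the surface of fibrils, multiplexins lie at basement membranes, and transmembrane collagens such as type XVII hold epithelial cells to their matrix. In the MOE, fibroblasts, vessels, and glia of the lamina propria lie under a basement membrane on which the horizontal basal cells rest.

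The libraries each sum to 1000000 TPM and hold 15096 to 16840 genes above 0. Their depth is unknown, so no counting interval or detection limit was calculated and a value below 1 TPM may rest on very few reads. The sorts gave the labelled direction, with 15 *Taar* genes summing to 86.1 TPM in GFP-negative against 804.1 TPM in GFP-positive cells, and to 60.8 and 3476 TPM in tdTomato-negative and tdTomato-positive cells. *Omp*, the marker of mature olfactory sensory neurons (OSNs), was present in all libraries, from 1108 to 10108 TPM. A change in the number of cells of a type and a change in RNA per cell cannot be told apart in these bulk samples.

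Collagen transcripts were scarce in all sorted populations. Their summed level was 136.0 TPM in GFP-negative against 184.9 TPM in GFP-positive cells, while it was 96.0 TPM in tdTomato-negative against 114.1 TPM in tdTomato-positive cells, or between 0.00960% and 0.0185% of a library. The median of the collagen genes above 0 was 1.15 to 2.26 TPM per library, compared with 11.2 to 24.7 TPM for all genes above 0. Of the 44 genes, 30 reached 1 TPM in a library, 8 reached 10 TPM, and 14 stayed below 1 TPM throughout, with 0.925 TPM as the highest value among them. *Col19a1* and *Col6a5* were listed at 0 in every library.

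The leading collagen differed between the populations. *Col9a2*, a chain of the cartilage FACIT type IX, was highest in both reporter-negative libraries, with 23.8 TPM in GFP-negative compared with 19.8 TPM in tdTomato-negative cells. In GFP-positive cells the type I chains *Col1a2* and *Col1a1* led and together held 39.6% of collagen TPM. In tdTomato-positive cells *Col27a1* and *Col8a2* led and held 52.3%. Even the leading collagen was exceeded by 2940 other genes in GFP-positive cells and by 8707 in tdTomato-negative cells.

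**Figure D1:**
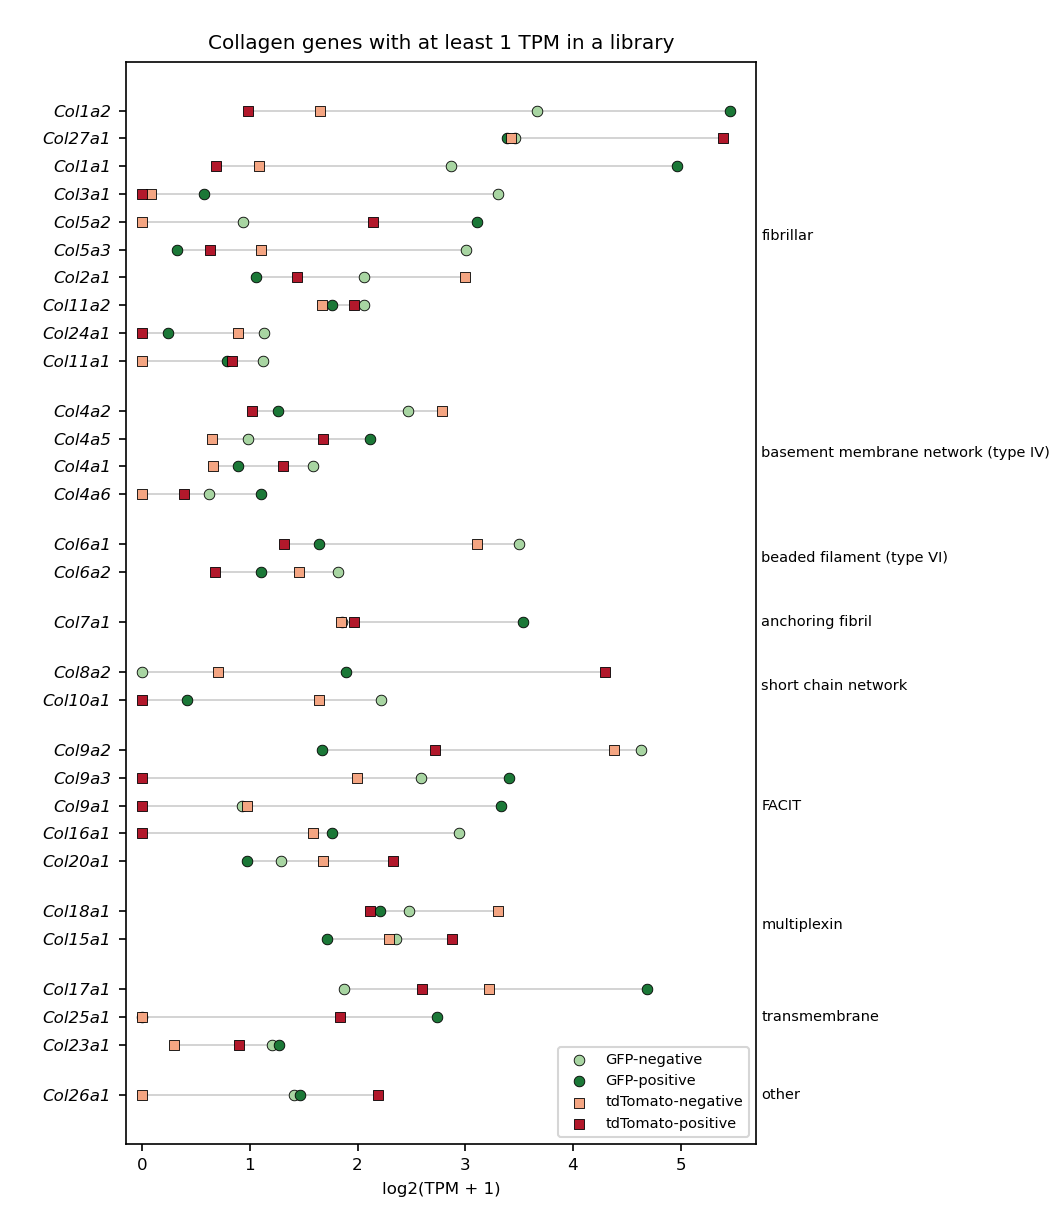
Level of the 30 collagen genes with at least 1 TPM in a library, on the log2(TPM + 1) scale (x axis), grouped by structural class. Each point is 1 library (circles for the GFP line, squares for the tdTomato line, dark for reporter-positive cells), and grey lines join the lowest and highest value. *Col1a1* and *Col1a2* were highest in GFP-positive cells, and *Col27a1* and *Col8a2* in tdTomato-positive cells.

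Each difference is log2(TPM + 1) of reporter-positive minus reporter-negative cells, a scale on which changes of low genes come out too small, and a difference of at least 2-fold was counted. In the GFP line, 9 of the 42 collagen genes above 0 in either library were at least 2-fold higher in GFP-positive cells, and 8 were at least 2-fold lower. Among all 17963 genes above 0 in either library, 12.8% were higher and 40.5% were lower by this measure. In the tdTomato line, 6 of 36 collagen genes were higher and 8 were lower in tdTomato-positive cells, beside 16.2% higher and 21.9% lower among 16752 genes. Of the collagen genes, 21.4% were thus higher and 19.0% lower in the GFP line, and 16.7% higher and 22.2% lower in the tdTomato line. The tdTomato-line shares were near those of all genes in both directions. The median log2 fold change of the collagen genes was -0.06 in the GFP line, where that of all genes was -0.74, and -0.00253 in the tdTomato line, where that of all genes was -0.19. These collagen medians include genes near 0 TPM, whose changes come out small on this scale. Among collagen genes with a mean of at least 1 TPM over the 4 libraries, the medians were -0.28 and -0.44. A median of all genes was not calculated under that filter. The low median of all genes in the GFP line depended on how the libraries are scaled. Median-ratio scaling is built to remove such a shift between libraries. With it the median of all genes was 0.000672 in the GFP line and -0.06 in the tdTomato line. The median of the collagen genes in the GFP line was then 0.19. Under this scaling 10 collagen genes were higher and 5 lower in the GFP line, a split of 66.7% higher instead of 52.9%. The scaling moved ratios in the GFP line up by 0.88 on the log2 scale. Shares of all genes past 2-fold were not calculated under it, so the new split cannot be set beside them. In the tdTomato line the split stayed at 6 higher and 8 lower.

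The summed collagen TPM was 1.36-fold higher in GFP-positive than in GFP-negative cells and 1.19-fold higher in tdTomato-positive than in tdTomato-negative cells. As deposited, these sums rested on a few genes. Without *Col1a1* and *Col1a2* the sums were 117.9 TPM in GFP-negative against 111.7 TPM in GFP-positive cells, and without *Col27a1* and *Col8a2* they were 85.7 TPM in tdTomato-negative against 54.4 TPM in tdTomato-positive cells. With median-ratio scaling the sum of all collagen genes in the GFP line was 2.51-fold higher in GFP-positive cells, and still 1.75-fold higher without the type I chains. In the tdTomato line the sum without *Col27a1* and *Col8a2* stayed lower under this scaling, with a log2 ratio of -0.50. Fibrillar collagens made up 39.6% of collagen TPM in GFP-negative, 51.7% in GFP-positive, 25.2% in tdTomato-negative, and 45.6% in tdTomato-positive cells. In the GFP line this larger share came from the type I chains, since the other 9 fibrillar genes summed, as deposited, to 35.7 TPM in GFP-negative and to 22.4 TPM in GFP-positive cells. FACIT collagens held 28.5% and 29.9% in the reporter-negative libraries, against 13.6% in GFP-positive and 9.13% in tdTomato-positive cells. The log2 ratio of summed FACIT TPM in the GFP line was -0.63 as deposited and 0.26 with median-ratio scaling.

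**Figure D2:**
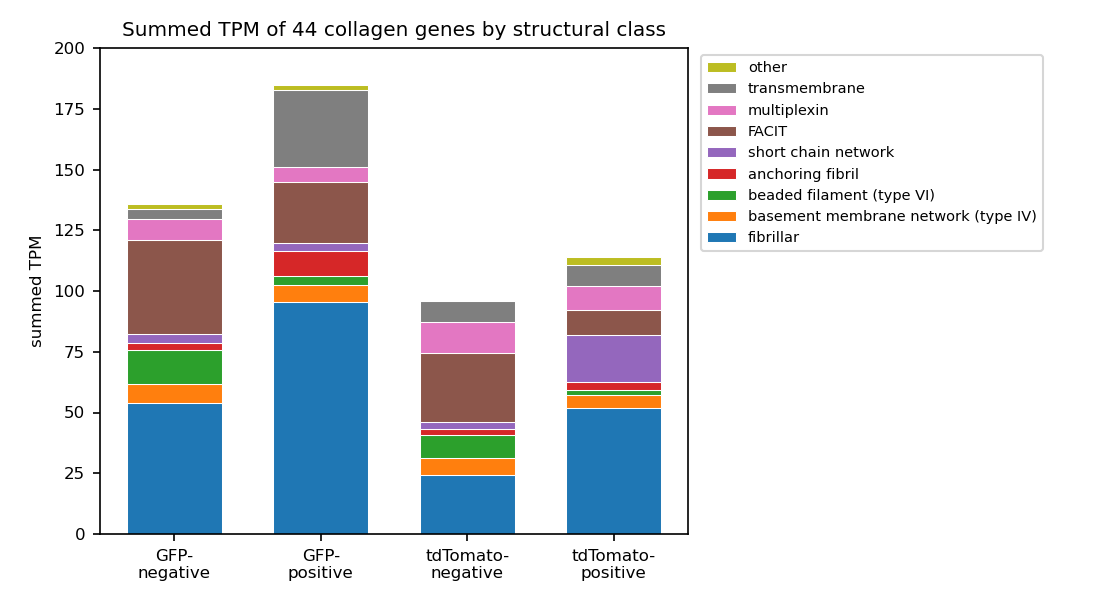
Summed TPM of the 44 collagen genes (y axis) in each of the 4 libraries, stacked by structural class, with 1 library per bar and no error. Fibrillar collagens were the largest class except in tdTomato-negative cells, and as deposited the FACIT class was larger in reporter-negative than in reporter-positive cells of each line, a direction that turned in the GFP line with median-ratio scaling.

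The genes lie on 15 chromosomes of the GENCODE M21 annotation of GRCm38 (mm10). RefSeq promoter windows on GRCm38.p6 were found for 35 of the 44 genes, in 38 windows. The 250 bases before the start site are printed for 4 genes that differed at least 2-fold in a line, that represent the different patterns described here, and whose windows hold no exon of GENCODE M21. *Col27a1* (chr4:63215162-63215411, plus strand) was higher in tdTomato-positive cells, and its window lies inside the annotated gene, in an intron of a longer transcript. *Col25a1* (chr3:130180595-130180844, plus strand) was higher in both reporter-positive libraries, and its window also lies inside the annotated gene (130131501 to 130599877). *Col7a1* (chr9:108953336-108953585, plus strand) was higher in GFP-positive cells, and *Col10a1* (chr10:34389731-34389980, plus strand) was lower in both. Capitals mark matches on either strand to TATAAA, the usual core of the TATA box, to the letters CCAAT of the box of that name, and to GGGCGG, the core of the GC box. Matches of GGGCGG may overlap each other.
Col27a1: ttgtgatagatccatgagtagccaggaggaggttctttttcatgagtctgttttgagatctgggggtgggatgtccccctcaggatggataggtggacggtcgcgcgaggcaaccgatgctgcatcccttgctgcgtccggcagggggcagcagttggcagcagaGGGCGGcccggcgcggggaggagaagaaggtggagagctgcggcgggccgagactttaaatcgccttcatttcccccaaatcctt
Col25a1: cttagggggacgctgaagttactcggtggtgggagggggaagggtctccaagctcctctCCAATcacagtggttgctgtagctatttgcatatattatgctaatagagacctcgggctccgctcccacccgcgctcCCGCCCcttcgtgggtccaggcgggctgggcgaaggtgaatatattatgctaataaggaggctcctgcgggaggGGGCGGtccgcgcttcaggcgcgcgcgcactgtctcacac
Col7a1: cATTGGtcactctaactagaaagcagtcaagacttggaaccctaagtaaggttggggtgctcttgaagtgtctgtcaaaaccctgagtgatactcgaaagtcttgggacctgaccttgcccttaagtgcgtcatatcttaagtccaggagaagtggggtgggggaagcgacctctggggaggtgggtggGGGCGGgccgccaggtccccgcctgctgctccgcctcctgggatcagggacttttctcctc
Col10a1: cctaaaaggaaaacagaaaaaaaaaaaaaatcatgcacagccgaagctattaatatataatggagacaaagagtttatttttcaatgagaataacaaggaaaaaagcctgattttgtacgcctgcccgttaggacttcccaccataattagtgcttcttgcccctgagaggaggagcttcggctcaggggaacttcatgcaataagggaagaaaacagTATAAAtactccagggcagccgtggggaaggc
In the *Col10a1* window TATAAA begins 32 bases before the start. The *Col25a1* window has CCAAT beginning 191 bases before the start and GGGCGG beginning 114 and 40 bases before it, *Col7a1* has CCAAT 249 and GGGCGG 61 bases before, and *Col27a1* has GGGCGG 85 bases before. GGGCGG was found in 57.9% of the 38 collagen windows and in 32.7% of 32851 windows of the same length. CCAAT was found in 34.2% of collagen and 33.8% of all windows, and TATAAA in 13.2% and 12.4%. A match of letters is a description and not a binding site.

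Type I collagen, the main fiber of bone, skin, and stroma, was abundant, for a collagen, in the GFP line alone. *Col1a1* (chromosome 11, 94936224 to 94953042) was at 6.31 TPM in GFP-negative against 30.2 TPM in GFP-positive cells, while it was 1.12 TPM in tdTomato-negative against 0.604 TPM in tdTomato-positive cells. *Col1a2* (chromosome 6, 4504814 to 4541544), its partner chain, was at 11.7, 42.9, 2.14, and 0.977 TPM in the same order. Both chains were higher in GFP-positive cells, with log2 fold changes of 2.09 and 1.79, and both were at their lowest in tdTomato-positive cells, with log2 fold changes of -0.40 and -0.67. The *Col1a2* value exceeded that of *Col1a1* in all libraries, by 1.86-fold in GFP-negative, 1.42-fold in GFP-positive, and 1.91-fold in tdTomato-negative cells, the 3 libraries where both were above 1 TPM.

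Among the other fibrillar collagens of stroma, *Col3a1* and *Col5a3* went against type I in the GFP line and *Col5a2* went with it. *Col3a1*, which forms fibers with type I in soft tissue, was at 8.86 TPM in GFP-negative against 0.489 TPM in GFP-positive cells, while it was 0.0615 TPM in tdTomato-negative against 0 in tdTomato-positive cells. *Col5a3*, a minor fibrillar chain of type V, was at 7.06 TPM in GFP-negative against 0.249 TPM in GFP-positive cells, while it was 1.15 TPM in tdTomato-negative against 0.544 TPM in tdTomato-positive cells. Thus *Col3a1* and *Col5a3* were lower in GFP-positive cells by 2.73 and 2.69 on the log2 scale, the opposite of type I in the same libraries. *Col5a2*, the type V chain that joins type I fibers, was higher in both lines, at 0.910 and 7.61 TPM in GFP-negative and GFP-positive cells, and 0 and 3.41 TPM in tdTomato-negative and tdTomato-positive cells. Its usual partner *Col5a1* stayed below 0.260 TPM in every library.

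Cells other than neurons were measured beside these values with marker lists. Of 10 fibroblast markers, 2 were at least 2-fold higher and 4 lower in GFP-positive cells, and 2 were higher and 2 lower in tdTomato-positive cells. Their median log2 fold changes were -0.06 and -0.07. Among all genes, as given above, 12.8% were higher and 40.5% lower in the GFP line and 16.2% and 21.9% in the tdTomato line, so that 4 of 10 lower is about the share of all genes. Their summed level ranged from 44.9 TPM in tdTomato-positive to 89.9 TPM in GFP-positive cells. *Dcn*, which encodes the fibril-binding proteoglycan decorin, was at 33.4 TPM in GFP-negative against 74.0 TPM in GFP-positive cells, and at 29.6 and 30.8 TPM in the tdTomato line. *Pi16*, a marker of adventitial fibroblasts, was at 14.7 and 3.03 TPM in the GFP line and at 17.6 and 2.40 TPM in the tdTomato line, lower in reporter-positive cells of both. *Pdgfra* was between 0.860 and 2.51 TPM in all libraries (this gene was chosen after its values were seen). Of 7 bone and cartilage markers, *Acan*, *Comp*, and *Matn1* were listed at 0 in all libraries, and all 7 were at 0 in both tdTomato-line libraries. *Bglap*, the osteoblast hormone osteocalcin, was at 14.1 TPM in GFP-positive cells and at 0 in the other 3, and *Ibsp*, bone sialoprotein, was at 1.90 TPM in GFP-negative against 3.82 TPM in GFP-positive cells. The part of fibroblasts or osteoblasts in the type I values was not tested.

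The fibrillar collagens known from cartilage were low, with *Col27a1* as the exception. *Col27a1* (chromosome 4, 63214004 to 63334991) was near 10 TPM in 3 libraries, at 10.04 TPM in GFP-negative, 9.44 TPM in GFP-positive, and 9.71 TPM in tdTomato-negative cells, and at 41.0 TPM in tdTomato-positive cells. The 3 lower values lie close to each other, and the log2 fold change was 1.97 in the tdTomato line and -0.08 in the GFP line, where it became 0.73 with median-ratio scaling. *Col2a1*, the main collagen of cartilage, was at 3.17 and 1.08 TPM in GFP-negative and GFP-positive cells and at 6.97 and 1.72 TPM in tdTomato-negative and tdTomato-positive cells. It was lower in reporter-positive cells of both lines, with log2 fold changes of -1.002 and -1.55. *Col11a2* was between 2.17 and 3.16 TPM throughout, and *Col11a1* and *Col24a1* did not exceed 1.20 TPM.

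Type IX collagen, a FACIT of 3 different chains, had chains that shared a direction in the tdTomato line but not in the GFP line. *Col9a2* (chromosome 4, 121039385 to 121055322) was at 23.8 TPM in GFP-negative against 2.18 TPM in GFP-positive cells, while it was 19.8 TPM in tdTomato-negative against 5.60 TPM in tdTomato-positive cells. Both reporter-negative libraries were above both reporter-positive libraries, with log2 fold changes of -2.96 and -1.66. For comparison, the 7 markers of mature OSNs had median log2 fold changes of -2.99 in the GFP line and -1.05 in the tdTomato line, and whether OSNs are the source of *Col9a2* was not tested. *Col9a1* was at 0.906, 9.07, 0.958, and 0 TPM in GFP-negative, GFP-positive, tdTomato-negative, and tdTomato-positive cells. *Col9a3* was at 5.03, 9.62, 2.98, and 0 TPM in the same order. Both were thus highest in GFP-positive cells and listed at 0 in tdTomato-positive cells, while *Col9a2* was lowest in GFP-positive cells. In tdTomato-positive cells all 3 chains were lower, with log2 fold changes of -0.97 for *Col9a1*, -1.66 for *Col9a2*, and -1.99 for *Col9a3*. The *Col9a1* difference did not reach 2-fold and rests on values below 1 TPM.

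Among the remaining FACIT genes, *Col16a1* was lower in both lines and *Col20a1* did not differ by 2-fold in either. *Col16a1*, a collagen of many stromal matrices, was at 6.68 and 2.39 TPM in GFP-negative and GFP-positive cells, and at 2.00 TPM and 0 in tdTomato-negative and tdTomato-positive cells. Its log2 fold change in the GFP line, -1.18, became -0.49 with median-ratio scaling. *Col20a1* was between 0.966 and 4.03 TPM, with the highest value in tdTomato-positive cells. Its log2 fold changes were -0.31 in the GFP line and 0.65 in the tdTomato line.

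Type VI collagen was lower in reporter-positive cells of both lines. *Col6a1* (chromosome 10, 76708792 to 76726168) was at 10.3 TPM in GFP-negative against 2.11 TPM in GFP-positive cells, while it was 7.63 TPM in tdTomato-negative against 1.49 TPM in tdTomato-positive cells. Its log2 fold changes were -1.86 and -1.79, and both reporter-negative values lay above both reporter-positive values. *Col6a2*, its partner chain, was at 2.53, 1.15, 1.74, and 0.602 TPM, with log2 fold changes of -0.72 and -0.78 that did not reach 2-fold. The third common chain, *Col6a3*, was at most 0.826 TPM and was listed at 0 in both libraries of the tdTomato line. Type VI collagen summed to 3.93-fold less TPM in GFP-positive than in GFP-negative cells and to 4.49-fold less in tdTomato-positive than in tdTomato-negative cells. With median-ratio scaling the log2 ratio of these sums in the GFP line was -1.09 instead of -1.98, and the log2 fold changes there were -1.17 for *Col6a1* and -0.17 for *Col6a2*. The endothelial marker *Pecam1* was also lower in reporter-positive cells of both lines, at 41.2 and 1.10 TPM in GFP-negative and GFP-positive cells and at 41.0 and 6.29 TPM in tdTomato-negative and tdTomato-positive cells. The 8 endothelial markers summed to 62.8 and 2.48 TPM in the GFP line and to 49.2 and 15.4 TPM in the tdTomato line. Of them, 6 were lower in the GFP line and 2 in the tdTomato line, and none was higher by 2-fold. Among all genes 40.5% and 21.9% were lower, and 2 of 8 is near the latter. The median log2 fold change of the list was -1.66 in the GFP line and -0.05 in the tdTomato line. *Vwf*, the von Willebrand factor of vessel walls, was at 5.44 and 0.621 TPM in the GFP line and at 3.48 and 6.36 TPM in the tdTomato line. The defining endothelial marker *Cdh5* (chosen after its values were seen) was at most 1.79 TPM and was 0 in both reporter-positive libraries. The part of vessel cells in the type VI values was not tested.

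The type IV chains of basement membranes were low in all libraries, with sums from 5.38 to 8.12 TPM. *Col4a1* and *Col4a2*, which assemble into the network found in nearly every basement membrane, start head to head on chromosome 8. The annotated start of *Col4a2* on the plus strand is 11312805 and that of *Col4a1* on the minus strand is 11312826, so their first exons overlap. *Col4a2* was at 4.52 and 1.39 TPM in GFP-negative and GFP-positive cells, and at 5.90 and 1.03 TPM in tdTomato-negative and tdTomato-positive cells, a lower level in reporter-positive cells of both lines. *Col4a1* was at 2.00 and 0.853 TPM in GFP-negative and GFP-positive cells, and at 0.579 and 1.47 TPM in the tdTomato line, so the paired chains differed in direction there. The ratio of *Col4a2* to *Col4a1* was 2.26 in GFP-negative and 0.699 in tdTomato-positive cells, the 2 libraries where both exceeded 1 TPM.

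The other type IV chains belong to the basement membranes of particular epithelia and smooth muscle. *Col4a5* was higher in reporter-positive cells, at 0.982 and 3.34 TPM in GFP-negative and GFP-positive cells and at 0.569 and 2.19 TPM in tdTomato-negative and tdTomato-positive cells. *Col4a6*, its neighbor on the X chromosome, was at 0.538, 1.15, 0, and 0.311 TPM in the same order. Both genes of this pair were higher in reporter-positive cells of both lines, but the differences of *Col4a6* were below 2-fold and its values rest near or under 1 TPM. *Col4a3* and *Col4a4* did not exceed 0.348 TPM.

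The multiplexins *Col15a1* and *Col18a1*, proteoglycans of vessel and epithelial basement membranes, were detected in every library. *Col18a1*, the precursor of endostatin, was at 4.59 and 3.62 TPM in GFP-negative and GFP-positive cells and at 8.87 and 3.35 TPM in tdTomato-negative and tdTomato-positive cells. Only the difference in the tdTomato line exceeded 2-fold. *Col15a1* ranged from 2.30 TPM in GFP-positive to 6.35 TPM in tdTomato-positive cells, without a 2-fold difference in either line. Its log2 fold change in the GFP line, -0.64, became 0.03 with median-ratio scaling.

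The collagens that fasten basal cells to the basement membrane were highest in GFP-positive cells. *Col17a1* (chromosome 19, 47646344 to 47692094), the transmembrane collagen of hemidesmosomes, was at 2.66 TPM in GFP-negative against 24.8 TPM in GFP-positive cells, while it was 8.33 TPM in tdTomato-negative against 5.05 TPM in tdTomato-positive cells. *Col7a1* (chromosome 9, 108953586 to 108984875), the anchoring fibril collagen, was at 2.62, 10.6, 2.60, and 2.91 TPM in the same order. For both genes the GFP-positive value stood above the other 3 libraries, and the log2 fold changes were 2.82 and 1.68 in the GFP line and -0.63 and 0.12 in the tdTomato line. Markers of horizontal basal cells were high in the same library. The 5 markers summed to 63.0 TPM in GFP-negative against 629.2 TPM in GFP-positive cells, but to 151.6 TPM in tdTomato-negative against 29.1 TPM in tdTomato-positive cells, and 4 of 5 were higher in the GFP line and all 5 lower in the tdTomato line, where 12.8% of all genes were higher in the former and 21.9% lower in the latter. *Krt15* was at 8.81 and 262.1 TPM and *Krt5* at 15.7 and 199.6 TPM in GFP-negative and GFP-positive cells. The part of horizontal basal cells in the *Col17a1* and *Col7a1* values was not tested.

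*Col8a2*, a short chain collagen of the corneal endothelium and vessels, was higher in reporter-positive cells of both lines. *Col8a2* (chromosome 4, 126286793 to 126314330) was listed at 0 in GFP-negative cells and stood at 2.71 TPM in GFP-positive, 0.632 TPM in tdTomato-negative against 18.6 TPM in tdTomato-positive cells. Its log2 fold changes were 1.89 and 3.59, and both depend on the pseudocount, the first being measured against a value of 0. In the tdTomato line the value was 4.68 with a pseudocount of 0.1 and 1.43 with a pseudocount of 10. Its partner *Col8a1* was below 1 TPM throughout. *Col10a1*, the short chain collagen of growth cartilage, was at 3.65 and 0.336 TPM in GFP-negative and GFP-positive cells and at 2.12 TPM and 0 in tdTomato-negative and tdTomato-positive cells. *Col10a1* lies on the strand opposite to *Nt5dc1*, with overlapping exons. *Nt5dc1* was at 28.8, 25.7, 20.3, and 49.3 TPM in GFP-negative, GFP-positive, tdTomato-negative, and tdTomato-positive cells, well above *Col10a1* in each. Whether reads were counted by strand is not given in the sources used here, so reads of the overlap cannot be told apart.

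*Col25a1* was above 0 in reporter-positive cells alone, and *Col26a1* differed in the tdTomato line but not by 2-fold in the GFP line. *Col25a1*, a transmembrane collagen of neurons needed for the innervation of muscle, was listed at 0 in both reporter-negative libraries, at 5.66 TPM in GFP-positive cells, and at 2.58 TPM in tdTomato-positive cells. *Col26a1* was at 1.65 and 1.75 TPM in the GFP line, and at 0 and 3.56 TPM in tdTomato-negative and tdTomato-positive cells. *Col23a1*, also a transmembrane collagen, was between 0.230 and 1.41 TPM.

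**Figure D3:**
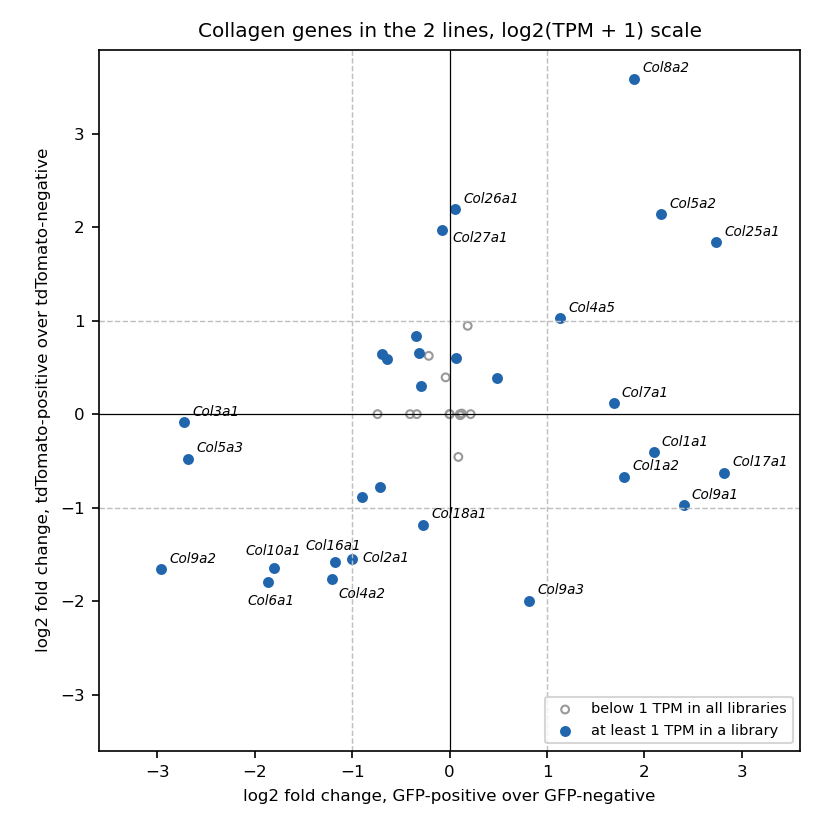
Log2 fold change of each of the 44 collagen genes on the log2(TPM + 1) scale, reporter-positive over reporter-negative, in the GFP line (x axis) and the tdTomato line (y axis). Filled points reached 1 TPM in a library, dashed lines mark 2-fold, and names are given for genes past 2-fold in a line. The upper right corner holds 4 genes and the lower left corner 6, and no gene passed 2-fold in opposite directions.

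The lines share no library, and their directions were set side by side. At least 2-fold higher in both lines were 4 genes (*Col4a5*, *Col5a2*, *Col8a2*, and *Col25a1*), and at least 2-fold lower in both were 6 (*Col2a1*, *Col4a2*, *Col6a1*, *Col9a2*, *Col10a1*, and *Col16a1*). These are 9.52% and 14.3% of the 42 collagen genes above 0 in a library, near the 6.87% and 12.6% found among all 18417 such genes. No collagen gene was 2-fold higher in one line and 2-fold lower in the other, as 2.67% of all these genes were. With a smaller threshold of 1.5-fold in each line, 6 of the 30 genes that reached 1 TPM had opposite directions, beside 6.93% of the 16917 genes of that level. With median-ratio scaling 2 of these collagen genes were left (*Col9a1* and *Col9a3*), beside 6.02% of all genes, and with rescaling without the highest genes 4 were left. In the GFP line the differences of *Col2a1*, *Col4a2*, and *Col16a1* were below 2-fold with median-ratio scaling, at -0.45, -0.60, and -0.49 on the log2 scale. The reporter-negative libraries also differed from each other, with *Col1a1*, *Col1a2*, *Col3a1*, *Col5a3*, *Col11a1*, *Col16a1*, and *Col26a1* at least 2-fold higher in GFP-negative cells and *Col17a1* at least 2-fold higher in tdTomato-negative cells. The share of all genes past 2-fold between these libraries was not calculated, so whether collagen genes differed more than others is not known.

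The genes that make, bind, and degrade collagen were measured as lists, and their counts stand beside 12.8% higher and 40.5% lower of all genes in the GFP line and 16.2% and 21.9% in the tdTomato line. The median log2 fold changes of all genes were -0.74 and -0.19. Of 29 genes for collagen synthesis and processing, 8 were higher and 5 lower in GFP-positive cells, and of the 23 above 0 in the tdTomato line, 6 were higher and 6 lower in tdTomato-positive cells. The medians of the list were 0.11 and -0.01. *P4hb*, a subunit of the enzyme that hydroxylates proline in collagen and a general chaperone of secretory cells, was at 271.9 and 681.7 TPM in GFP-negative and GFP-positive cells and at 262.6 and 481.5 TPM in tdTomato-negative and tdTomato-positive cells. *Ppib*, a prolyl isomerase of the same compartment, differed by less than 2-fold in both lines. The enhancers of procollagen cleavage, chosen after their values were seen, differed in opposite ways. *Pcolce* was at 3.31 and 73.6 TPM in the GFP line and at 9.83 and 70.7 TPM in the tdTomato line, higher in reporter-positive cells, while *Pcolce2* was at 348.1 and 58.8 TPM and at 391.9 and 133.6 TPM, lower in reporter-positive cells.

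Of 17 other basement membrane genes, 6 were higher and 2 lower in the GFP line, and 1 was higher and none lower among 15 in the tdTomato line, with medians of -0.13 and -0.02. *Agrn*, agrin, was the highest on average, from 48.1 TPM in GFP-positive to 95.4 TPM in GFP-negative cells. *Pxdn*, the peroxidase that crosslinks type IV collagen, was at 54.6 and 11.9 TPM in GFP-negative and GFP-positive cells and at 59.6 and 41.3 TPM in tdTomato-negative and tdTomato-positive cells. The laminin chain *Lamb3*, chosen after its values were seen as a partner of types VII and XVII in hemidesmosomes, was at 2.42 and 33.3 TPM in the GFP line and at 4.09 and 4.29 TPM in the tdTomato line.

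Among 9 collagen receptors, 1 was higher and 2 were lower in each line, out of 7 above 0 in the GFP line and 8 in the tdTomato line, each within 1 gene of the share of all genes. The medians were -0.11 and -0.21. The higher gene in both was *Ddr1*, a receptor tyrosine kinase that binds collagen on epithelial cells, at 17.0 and 110.6 TPM in GFP-negative and GFP-positive cells and at 31.2 and 268.4 TPM in tdTomato-negative and tdTomato-positive cells. *Itgb1*, the common chain of collagen-binding integrins, differed by less than 2-fold, between 74.1 and 114.5 TPM. *Ddr2*, the receptor found on fibroblasts (chosen after its values were seen), was at most 0.389 TPM. Of 6 collagen-degrading enzymes, 2 were higher and 4 lower in the GFP line, and 1 was higher and 3 lower in the tdTomato line, with medians of -1.89 and -1.29. The neutrophil enzymes *Mmp8* and *Mmp9* were at 69.0 and 60.3 TPM in GFP-negative cells and at 0.0159 and 0.392 TPM in GFP-positive cells. In the tdTomato line, *Mmp9* was at 62.0 and 0.968 TPM and *Mmp8* at 12.6 TPM and 0. Among 6 immune cell markers, 5 were lower in each line, beside 40.5% and 21.9% of all genes, and 1 was higher in the tdTomato line, where their sums were 1738 and 1731 TPM, and in the GFP line the sums were 4495 and 2075 TPM. *Lyz2*, the lysozyme of macrophages and neutrophils, was at 1581 and 2043 TPM in the GFP line and at 706.7 and 1707 TPM in the tdTomato line. By contrast, *S100a8*, a neutrophil gene, was at 2347 and 12.0 TPM in the GFP line and at 687.1 and 0.754 TPM in the tdTomato line.

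**Figure D4:**
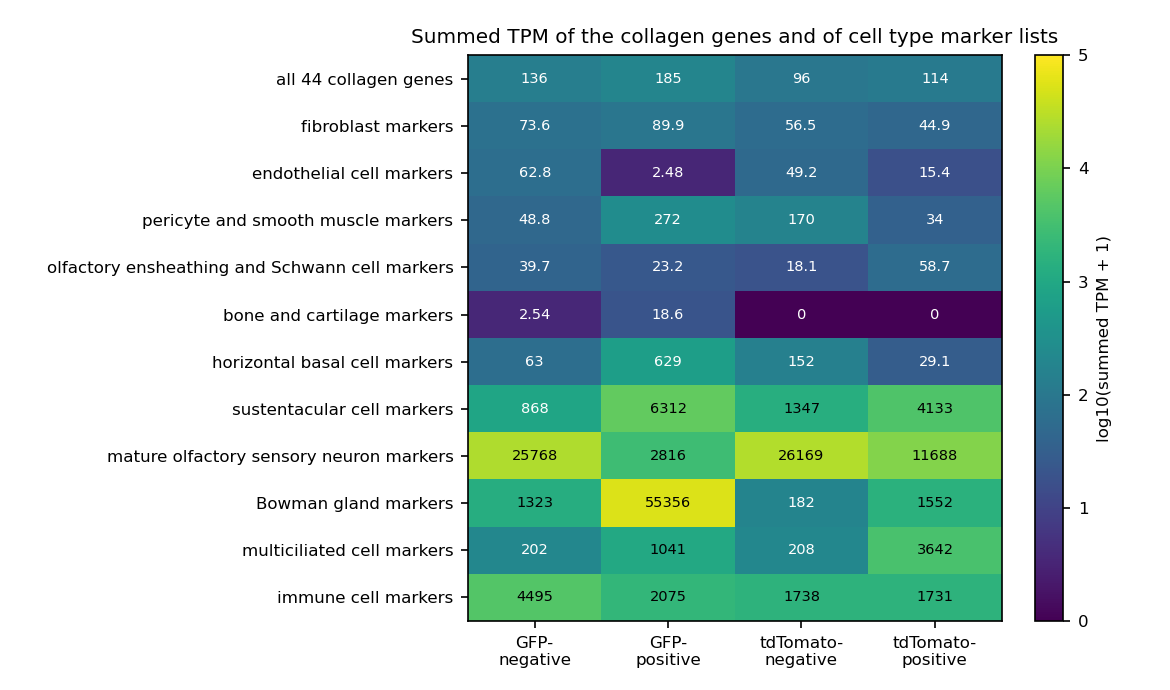
Summed TPM of the 44 collagen genes and of 11 lists of cell type markers (rows) in the 4 libraries (columns), with the value printed in each cell and the color on a log10(summed TPM + 1) scale. Collagen genes stayed between 96.0 and 184.9 TPM, while horizontal basal cell markers were highest in GFP-positive cells and bone and cartilage markers were at 0 in both libraries of the tdTomato line.

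Markers of the remaining cell types also differed between the sorted populations, and their part in the collagen values was not tested. Counts of these markers stand beside 12.8% higher and 40.5% lower of all genes in the GFP line, and 16.2% and 21.9% in the tdTomato line. The 4 Bowman gland markers summed to 1323 and 55356 TPM in GFP-negative and GFP-positive cells and to 181.9 and 1552 TPM in tdTomato-negative and tdTomato-positive cells, the 6 sustentacular cell markers to 867.7 and 6312 TPM and to 1347 and 4133 TPM, and the 4 multiciliated cell markers to 202.1 and 1041 TPM and to 207.6 and 3642 TPM. Pericyte and smooth muscle markers summed to 48.8 and 271.8 TPM and to 170.2 and 34.0 TPM, mostly *Rgs5*, at 261.9 TPM in GFP-positive and 158.2 TPM in tdTomato-negative cells. *Notch3*, a receptor of mural cells, was at 1.81 and 8.41 TPM in the GFP line and at 5.07 TPM in both libraries of the tdTomato line. Of the 7 markers, 2 were higher and 2 lower in the GFP line, and 2 were higher and 1 lower in the tdTomato line, so that the lower genes were no more frequent than among all genes. *Tagln*, a smooth muscle protein chosen after its values were seen, went against *Rgs5*, at 5.54 and 0.491 TPM in the GFP line and at 0.173 and 4.77 TPM in the tdTomato line. *Pdgfrb*, a defining pericyte gene chosen after its values were seen, was at most 1.33 TPM. Olfactory ensheathing and Schwann cell markers summed to 39.7 and 23.2 TPM and to 18.1 and 58.7 TPM. Their leading genes differed in direction. *Fabp7*, a fatty acid binding protein of glia, was at 29.5 and 0.0511 TPM in the GFP line and at 8.26 and 23.0 TPM in the tdTomato line. *Sox10*, the glial transcription factor, was at 3.18 and 19.7 TPM in the GFP line and at 3.41 and 0.958 TPM in the tdTomato line.

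The highest genes of the epithelial lists did not all differ in the same way. *Bpifb9b* of Bowman glands was at 1304 and 55039 TPM in GFP-negative and GFP-positive cells and at 149.6 and 1354 TPM in the tdTomato line. *Aqp5*, a water channel of glands, was at 12.7 and 285.7 TPM and at 18.4 and 165.8 TPM. Both were higher in reporter-positive cells of both lines. All 4 Bowman gland markers were higher in the GFP line, and 3 were higher and 1 lower in the tdTomato line. The lower gene was the mucin *Muc2*, at 12.2 and 3.74 TPM, chosen after its values were seen. *Cyp2a5*, a detoxifying enzyme of sustentacular cells, was at 442.4 and 4175 TPM in the GFP line and at 745.2 and 3572 TPM in the tdTomato line. *Sult1c1*, a sulfotransferase, was at 189.1 and 1028 TPM in the GFP line but at 291.0 and 304.2 TPM in the tdTomato line, where it did not differ by 2-fold. All 6 sustentacular markers were higher in the GFP line, but 2 were higher and 2 lower in the tdTomato line (16.2% and 21.9% among all genes), and the median of their log2 fold changes there was 0.31. The lower genes were *Cyp2g1*, at 248.2 and 84.9 TPM, and *Cyp1a2*, at 36.9 and 10.9 TPM, so the higher sum in tdTomato-positive cells came mostly from *Cyp2a5* (the lower genes were chosen after their values were seen). *Foxj1*, the regulator of motile cilia, was at 126.3 and 302.2 TPM and at 114.3 and 975.5 TPM, and *Ccdc153* was at 0 and 582.8 TPM and at 13.6 and 2010 TPM. Both ciliary genes were higher in reporter-positive cells. *Stoml3*, a protein of OSN cilia, was at 8815 and 763.6 TPM in the GFP line and at 8419 and 3332 TPM in the tdTomato line, lower in reporter-positive cells as *Omp* was.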

How the data were processed

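RNA-seq of reporter-positive and reporter-negative cells, sorted from papain-dissociated MOE, gave 1 library for each of 4 groups, assigned from the labels. The authors deposited 1 table of TPM values per gene, in which each library sums to 1000000, so that depth is not kept. The submitters' processing notes name mm10, Trimmomatic 0.36, and Salmon 1.4.0, whereas the methods of the study name Hisat2, Cufflinks, and featureCounts. The labels name Vazyme kits and the methods name RNeasy and Smart-seq2. The annotation, filters, and strandedness are not given in the sources used here. Multi-mapping or overlapping reads could therefore shift low values, and exons of 13 collagen genes overlap another gene.

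Fold changes were calculated as log2(TPM + 1) of reporter-positive minus reporter-negative cells for genes above 0 TPM in either library, and at least 2-fold was counted. No test was run, since no group has a second library. The calculation was checked on simulated data. Each collagen gene with at least 1 TPM in a library is named, as are the 2 genes of highest mean TPM in each list, and others are marked as chosen after their values were seen. The collagen genes and the lists were chosen with earlier results of these data known. Alternatives were pseudocounts of 0.1 and 10, no filter, a filter at a mean of 1 TPM over the 4 libraries, a 4-fold threshold, median-ratio scaling, and rescaling without the highest genes. Promoter windows were taken from RefSeq, and positions from GENCODE M21.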

Additional observations from a re-analysis of the deposited data

Results flagged for a closer look

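For 6 of the 30 collagen genes that reached 1 TPM, reporter-positive and reporter-negative cells differed by at least 1.5-fold in opposite directions in the GFP line and the tdTomato line. Among all genes of that level 6.93% did so. The difference between the lines was not tested, since there is 1 library per group, and the lines also differ in enhancer, reporter, founder, sort, and the stated age range. The log2 fold change in the GFP line minus that in the tdTomato line was 3.44 for *Col17a1*, 3.37 for *Col9a1*, 2.81 for *Col9a3*, and 2.46 for *Col1a2*, all higher in GFP-positive and lower in tdTomato-positive cells. It was -1.23 for *Col15a1* and -1.34 for *Col4a1*, which were lower in GFP-positive and higher in tdTomato-positive cells. With median-ratio scaling the GFP-line values of *Col15a1* and *Col4a1* became 0.03 and -0.21, and the tdTomato-line values of *Col17a1* and *Col1a2* became -0.48 and -0.54, all below 1.5-fold, so that 2 of the 6 genes were left, *Col9a1* and *Col9a3*. With rescaling without the highest genes 4 were left, *Col17a1*, *Col1a2*, *Col9a1*, and *Col9a3*. The shares of all genes were 6.02% with median-ratio scaling and 6.38% with this rescaling.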

How the results depend on the processing

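No paired analysis was possible because replicates are lacking in all 4 groups and nothing was tested. In the GFP line, 9 collagen genes higher and 8 lower became 11 higher and 14 lower with a pseudocount of 0.1, 3 higher and 1 lower with a pseudocount of 10, 10 higher and 5 lower with median-ratio scaling or with rescaling without the highest genes, and 5 higher and 3 lower at a 4-fold threshold. In the tdTomato line, 6 higher and 8 lower became 13 higher and 13 lower with a pseudocount of 0.1, 2 higher and 0 lower with a pseudocount of 10, and 3 higher and 0 lower at 4-fold. Shares of all genes beside these counts were calculated only for the main setting. The log2 ratio of summed collagen in the GFP line was 0.44 as deposited and 1.33 with median-ratio scaling. Of the 17 genes counted in the GFP line, 14 stayed past 2-fold with either scaling and 4 with a pseudocount of 10. All 14 counted in the tdTomato line stayed past it with either scaling, but 2 with a pseudocount of 10. With a pseudocount of 0.1 every counted gene stayed past it. Directions could not turn under these settings, because a pseudocount keeps the sign and the scalings shifted the libraries by less than 2-fold. With median-ratio scaling the sums of type IV, short chain, FACIT, multiplexin, and the 2 unclassed collagens in the GFP line changed sign, to 0.64, 0.69, 0.26, 0.32, and 0.68. Without known depth, values near or below 1 TPM limit most of these differences.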
